A study of Homo sapiens with 4 samples.

Results

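The genes described here are 45 genes of the G2 phase and of mitosis, from the cyclins and kinases that start cell division to the proteins that separate the chromosomes and the daughter cells. They were chosen by gene symbol, from a list, and were matched to Ensembl identifiers in the count table, which holds 61860 identifiers. All 45 had a count in each library and passed the filter on low counts, as did 17492 genes in all. The cells were NK-92, a line of human natural killer (NK) cells that needs interleukin 2 (IL-2) to grow, and total RNA was sequenced after removal of ribosomal RNA. Libraries of the wild type (WT) were set against those of 1 edited line, ΔOGT-ISS, in which an intronic splicing silencer (ISS) of OGT was cut out with CRISPR-Cas9. OGT encodes the enzyme that adds the sugar O-GlcNAc to proteins in the nucleus and cytoplasm. Each line had 1 library with human IL-2 given 48 h before extraction of the RNA and 1 with IL-2 given 24 h before it, and the cells of all 4 libraries were grown in medium with IL-2. The library titles name IL-2 at 24 h alone, and the times used here are those of the treatment label. Nothing in the labels says whether the edited line is a single clone or that the libraries came from separate cultures, so the spread that p-values measure here is that of 4 libraries and may be technical. A difference between the lines cannot be told apart from other differences between 2 cultured lines.

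Cells commit to mitosis when cyclin A2 and the B cyclins activate the kinase CDK1, which the CDC25 phosphatases switch on. PLK1 and the Aurora kinases phosphorylate further proteins of mitosis. Kinetochores built on the centromere histone CENPA capture spindle microtubules, and the spindle assembly checkpoint holds the anaphase-promoting complex in check until every chromosome is attached. That complex, with CDC20, then marks securin and cyclin B for destruction, separase opens the cohesin rings, and kinesins and regulators of the cleavage furrow complete the split. Transcription of most of these genes rises late in the cell cycle through the MuvB complex with B-MYB and FOXM1, so in bulk RNA their level depends on how many cells are dividing. More cells in G2 or mitosis and more RNA in each such cell cannot be told apart in these libraries. In NK cells, division follows stimulation by cytokines such as IL-2, and NK-92 divides continuously in its presence.

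Counts per library were 10889986 and 11305599 at 48 h and 24809269 and 28576566 at 24 h, so that depth goes with the IL-2 time. Values in CPM are counts scaled to the library size, with factors from the trimmed mean of M-values (TMM). In CPM, OGT had 399 (ΔOGT-ISS) and 446 (WT) at 48 h and 384.0 and 449 at 24 h, with a log2 difference of -0.19 (standard error, SE, 0.16, edgeR adjusted p = 0.862). A count per gene takes in spliced and unspliced transcripts alike and so does not check the edit. Each of 15 NK cell markers reached 1 CPM in at least 1 library, and 12 were at 5 CPM or more in all 4. NCAM1 (CD56) was at 263 to 474 CPM, TYROBP at 1.31 to 26.9 and FCER1G at 0.586 to 5.39. CD7 was at 0.613 and 0.662 CPM at 48 h (ΔOGT-ISS, WT) and at 11.4 and 10.2 at 24 h. By the edgeR test used below, TYROBP, CD2 and GZMA were lower in ΔOGT-ISS, 20% of the markers, against 0.314% of all genes. Of the 15 fitted differences 13 were below 0 (median log2 -0.53). Markers of other cell types were under 1 CPM in every library for 3 of 8 T cell genes (CD3D, CD4, CD8A), 4 of 7 B cell genes, 5 of 8 myeloid genes, 4 of 8 fibroblast and epithelial genes and all 6 of erythroid cells and platelets. The T cell list summed to 252 to 426 CPM in ΔOGT-ISS and 303 to 435 in WT, mostly CD3E (187 to 316), with TRBC2 at 39.4 to 102 and TRAC at 19.9 to 24.0. The B cell list summed to 95.5 to 204 and 61.9 to 133, from PAX5 (52.0 to 80.8) and IGHM (7.84 to 141), while MS4A1 was at most at 0.263 CPM. The myeloid list summed to 43.5 to 604 and 307 to 819, mostly S100A9 (38.9 to 779), with ELANE at 0. The fibroblast and epithelial list summed to 234 to 494 and 331 to 621, nearly all from PDGFRB (228 to 619). These levels differed between the libraries, and their part in the results was not tested.

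Promoters of this gene set share 2 textbook elements, the cell cycle genes homology region (CHR, with the cores TTTGAA or TTTAAA) that MuvB binds, and the CCAAT box that the factor NF-Y binds. The promoters of a few genes on which the results below turn are shown, from RefSeq (GRCh38.p14), as the 150 bases before the RefSeq start, written 5′ to 3′ on the plus strand, which is the strand of all 6 genes, with every match on either strand in capitals. CCNB2 (chr15:59104996-59105145), KIF23 (chr15:69414199-69414348) and BUB1B (chr15:40160919-40161068) are the 3 members on chromosome 15. INCENP (chr11:62123861-62124010) and ESPL1 (chr12:53268149-53268298) had the largest differences between the IL-2 times among members called higher at 24 h, and CCNB1 (chr5:69167000-69167149) the largest among those called lower. GENCODE release 29 starts 5 of these 6 genes upstream of the RefSeq start, so part of each of those stretches lies inside its gene model.
CCNB2: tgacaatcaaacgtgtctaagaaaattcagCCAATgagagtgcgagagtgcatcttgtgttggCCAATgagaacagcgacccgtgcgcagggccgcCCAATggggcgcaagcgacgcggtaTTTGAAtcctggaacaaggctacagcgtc
KIF23: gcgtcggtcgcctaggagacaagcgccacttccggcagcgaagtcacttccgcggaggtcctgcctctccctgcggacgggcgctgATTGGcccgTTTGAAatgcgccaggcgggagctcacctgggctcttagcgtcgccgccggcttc
BUB1B: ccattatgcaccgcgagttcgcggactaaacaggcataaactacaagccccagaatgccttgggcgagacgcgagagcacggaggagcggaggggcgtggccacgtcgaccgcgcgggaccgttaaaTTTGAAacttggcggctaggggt
INCENP: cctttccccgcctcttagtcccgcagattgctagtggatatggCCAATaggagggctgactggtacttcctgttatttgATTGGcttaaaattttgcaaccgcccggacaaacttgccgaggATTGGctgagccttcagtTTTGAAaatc
ESPL1: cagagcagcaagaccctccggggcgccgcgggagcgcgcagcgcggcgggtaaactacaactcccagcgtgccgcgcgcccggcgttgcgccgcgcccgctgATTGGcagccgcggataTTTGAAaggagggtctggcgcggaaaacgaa
CCNB1: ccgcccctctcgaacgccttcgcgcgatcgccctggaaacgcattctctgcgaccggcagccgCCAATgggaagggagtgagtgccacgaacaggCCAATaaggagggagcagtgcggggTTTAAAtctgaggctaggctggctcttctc

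Both strands of the 250 bases before the RefSeq start were searched in the 37 members with a promoter in the table, and in all 27305 genes there. AURKA, BIRC5, BUB3, FOXM1, RACGAP1, TPX2, TTK and UBE2C had no entry. TTTGAA was found in 22 of the 37 (59.5%, against 16.1% of all genes), TTTAAA in 12 (32.4%, against 13.5%) and CCAAT in 31 (83.8%, against 37.0%). A core of either kind together with a CCAAT box was present in 25 of the 37 members (67.6%) and in 9.29% of all genes. Among the 10878 table genes that passed the count filter the corresponding share was 7.81%. NDC80, NUF2 and KIF2C held none of these letters in this window. The match is a description of the letters and not of binding.

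Levels between genes are compared as FPKM, which divides by transcript length. TOP2A, the topoisomerase that untangles sister chromatids, had the highest mean over the 4 libraries at 226 FPKM, followed by PTTG1 (securin) at 204, UBE2C at 170, TPX2 at 164 and CCNB1 at 122. CDC25C was lowest at 13.2 FPKM, after KIF18A at 16.9 and ESPL1 (separase) at 21.1. In the 4 libraries TOP2A was listed at 258 and 223 FPKM at 48 h (ΔOGT-ISS, WT) and 215 and 207 at 24 h, and CDC25C at 13.0, 12.7, 14.1 and 12.9 in the same order. The ranges of neighbours in this order overlap: PTTG1 spanned 162 to 281 FPKM and UBE2C 123 to 193. Together the 45 genes took 1.19% and 1.10% of all counts at 48 h (ΔOGT-ISS, WT) and 1.22% and 1.14% at 24 h, a narrow range over all 4 libraries. The fewest counts of any member in a library were 245, so counting error is small for these genes. Named pseudogene copies of the members held little: the largest, UBE2CP5, had 135 counts, 1.31% of those of UBE2C. CCNA2, CDC25C, FOXM1, CENPA, SPC25, KIF4A, KIF18A, KIF20A and NCAPG are each overlapped by another gene with at least 0.1 of their counts and are uncertain to that extent. Whether reads were counted by strand is not given in the sources used here. For CENPA, whose overlapping gene SLC35F6 lies on the same strand, counting by strand would not separate the reads.

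**Figure D1:**
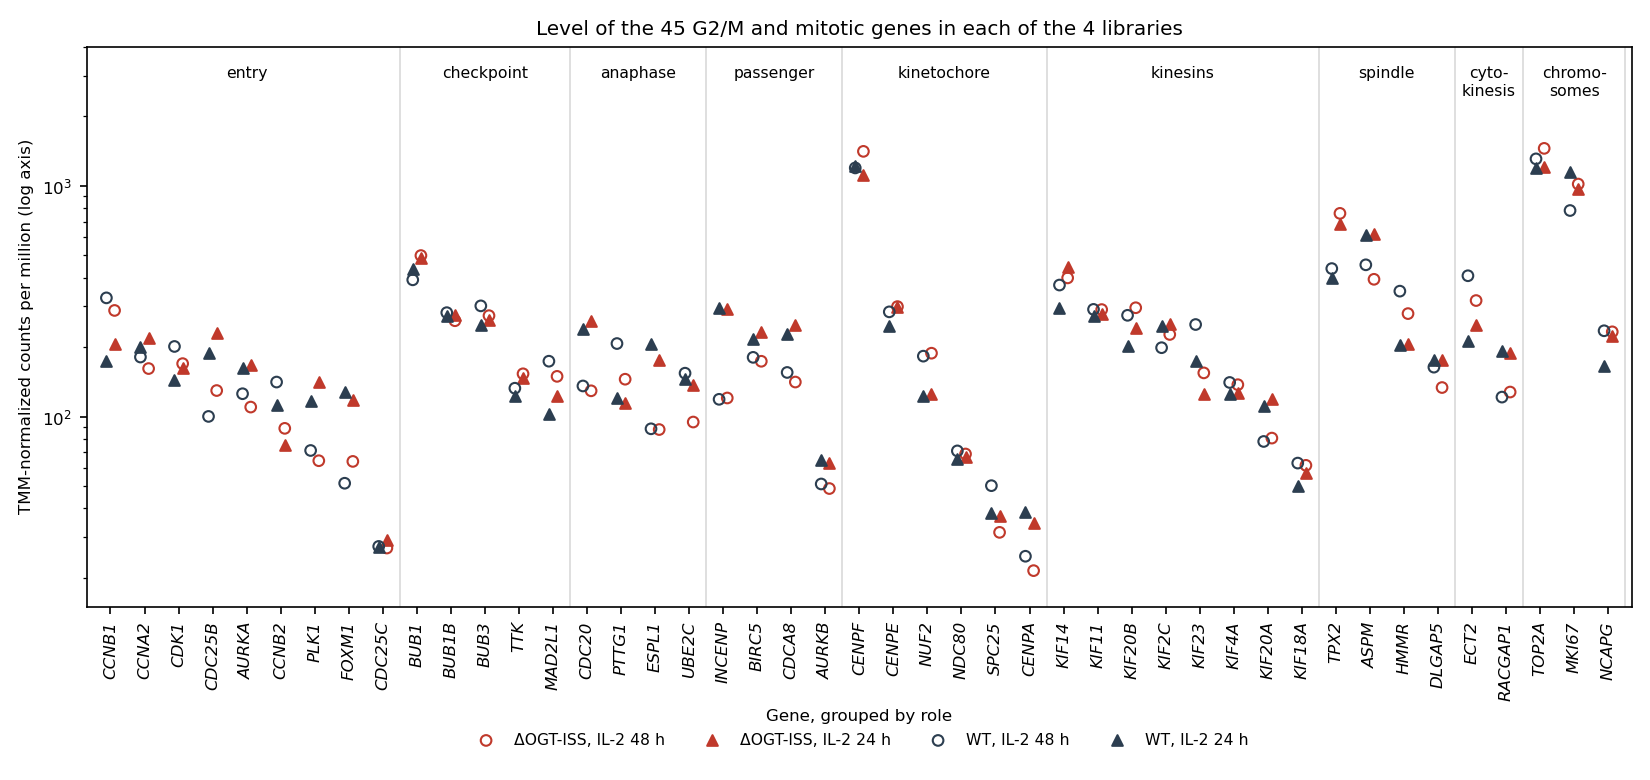
TMM-normalized CPM (log axis) of the 45 genes in the 4 libraries, grouped by role, with circles for IL-2 given 48 h and triangles for IL-2 given 24 h before extraction. The highest of the 4 values of a gene was from 1.07 (KIF11) to 2.48 (FOXM1) times its lowest. TPX2 is higher in both ΔOGT-ISS libraries than in both WT libraries, with line ratios of 1.74 at 48 h and 1.72 at 24 h. Its highest value over lines and times was 1.91 times its lowest. INCENP, FOXM1 and ESPL1 spread more and are higher in both 24 h libraries than in both 48 h libraries.

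Which genes differ between ΔOGT-ISS and WT is the question the study's design states. None of the 45 mitotic genes passed the edgeR test between the lines (adjusted p under 0.05, over 17492 genes). Of all genes 0.463% did (81 genes, with 0.149% higher and 0.314% lower in ΔOGT-ISS). At so low a share, 0 of 45 does not set the members apart from all genes. At an unadjusted p under 0.05 there were 3 members, TPX2, CCNB2 and KIF23, against 9.08% of all genes (1589). With DESeq2 in place of edgeR 1 member, TPX2, was called (0.78, DESeq2 adjusted p = 0.0018), and likewise with offsets for GC content in edgeR (0.76, adjusted p = 0.0345). The median log2 difference (ΔOGT-ISS minus WT, fitted over both times) was 0.018 for the members and 0.018 for all genes, with 25 of 45 members above 0 and a range of -0.62 to 0.79. The 95% intervals of 44 members lay wholly inside a change of 1 on the log2 scale in either direction, which bounds their line difference to under 2-fold within this model. TPX2 was the exception, with an interval of 0.42 to 1.16. Both ΔOGT-ISS libraries lay on 1 side of both WT libraries for 9 of 45 members (20%), against 21.5% of all genes tested.

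Among the 9 genes of mitotic entry, fitted log2 differences ran from -0.62 to 0.33 and none passed the test. CCNB2, the cyclin B that resides mainly at the Golgi, was at 88.9 CPM in ΔOGT-ISS and 141 in WT at 48 h, and 75.3 and 112 at 24 h. Both ΔOGT-ISS values lay below both WT values, and the log2 difference was -0.62 (SE 0.16, edgeR adjusted p = 0.179), with a 95% interval of -0.98 to -0.26. CDC25B, a phosphatase that activates CDK1 early in G2, stood at 129.6 and 100.1 CPM at 48 h (ΔOGT-ISS, WT) and at 229.8 and 188 at 24 h, higher in ΔOGT-ISS at each time but with overlapping groups, and its difference was 0.33 (SE 0.15, edgeR adjusted p = 0.61). CCNA2, CCNB1, CDK1, CDC25C, PLK1, AURKA and FOXM1 had log2 differences between -0.07 and 0.09. In the spindle assembly checkpoint the differences ran from -0.04 to 0.25. BUB1, a kinase at unattached kinetochores, was at 499 CPM in ΔOGT-ISS and 391 in WT at 48 h, and 488 and 437 at 24 h, with 0.25 (SE 0.16, edgeR adjusted p = 0.778). TTK (MPS1), the kinase that starts the checkpoint signal, was at 153 and 133 CPM at 48 h (ΔOGT-ISS, WT) and at 147 and 123 at 24 h, with 0.23 (SE 0.15, edgeR adjusted p = 0.796). For both genes the ΔOGT-ISS libraries lay above the WT libraries. MAD2L1, BUB3 and BUB1B lay between -0.04 and 0.02.

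Of the partners of the anaphase-promoting complex and separase, 3 of 4 had differences below 0, and none passed the test. UBE2C, the ubiquitin-conjugating enzyme of that complex, was at 94.7 CPM in ΔOGT-ISS and 154 in WT at 48 h, and 137 and 146 at 24 h, with a log2 difference of -0.39 (SE 0.19, edgeR adjusted p = 0.63). PTTG1, which is securin, the inhibitor of separase, was at 145 and 207 CPM at 48 h (ΔOGT-ISS, WT) and at 114 and 120.2 at 24 h, with -0.29 (SE 0.17, edgeR adjusted p = 0.741). In each case the gap between the lines was seen mainly in the 48 h pair. The chromosomal passenger complex, which corrects faulty attachments, hardly differed: AURKB, its kinase, was at 48.7 and 51.0 CPM at 48 h (ΔOGT-ISS, WT) and at 63.0 and 64.6 at 24 h (-0.05, SE 0.16, edgeR adjusted p = 0.976). BIRC5 (survivin) was at 174 and 181 CPM at 48 h (ΔOGT-ISS, WT) and at 232 and 217 at 24 h, with 0.02 (SE 0.16, edgeR adjusted p = 0.992), and INCENP and CDCA8 (borealin) stood at 0.01 and -0.01. These 4 genes span the narrowest range of any role group with more than 3 members. At the kinetochore, SPC25, a subunit of the NDC80 complex that binds microtubules, was at 31.5 CPM in ΔOGT-ISS and 50.1 in WT at 48 h, and 37.0 and 38.1 at 24 h, with -0.35 (SE 0.20, edgeR adjusted p = 0.738), and NDC80 and NUF2 of the same complex lay at -0.004 and 0.03. CENPE, a kinesin that moves chromosomes to the spindle equator, was at 299.6 and 284 CPM at 48 h (ΔOGT-ISS, WT) and at 299 and 247 at 24 h, with 0.18 (SE 0.16, edgeR adjusted p = 0.882).

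Among the 8 mitotic kinesins the log2 differences ran from -0.58 to 0.35. KIF23 (MKLP1), the motor of centralspindlin at the cleavage furrow, was at 155 CPM in ΔOGT-ISS and 251 in WT at 48 h, and 126 and 174 at 24 h. Its ΔOGT-ISS values lay below both WT values, with a difference of -0.58 (SE 0.16, edgeR adjusted p = 0.227) and a 95% interval of -0.95 to -0.21. RACGAP1, its partner in centralspindlin, was at 128 and 121 CPM at 48 h (ΔOGT-ISS, WT) and at 188 and 192 at 24 h, with 0.02 (SE 0.15, edgeR adjusted p = 0.993). KIF14, a kinesin of the midbody, was at 399 CPM in ΔOGT-ISS and 372 in WT at 48 h, and 444 and 295 at 24 h, with 0.35 (SE 0.18, edgeR adjusted p = 0.669). TPX2, which activates AURKA and seeds microtubules near chromosomes, had the largest line difference of all members and was at 760.0 CPM in ΔOGT-ISS and 438 in WT at 48 h, and 685 and 399 at 24 h. Both ΔOGT-ISS libraries were far above both WT libraries, with 0.79 (SE 0.16, edgeR adjusted p = 0.104), which misses the threshold. AURKA, the kinase that TPX2 binds, was at 109.9 and 126 CPM at 48 h (ΔOGT-ISS, WT) and at 167 and 162 at 24 h, a difference of -0.07. HMMR, a spindle pole protein, was at 279 and 349.6 CPM at 48 h (ΔOGT-ISS, WT) and at 206 and 205 at 24 h, with -0.16 (SE 0.16, edgeR adjusted p = 0.909). ECT2, a regulator of cytokinesis, was at 318 and 408 CPM at 48 h (ΔOGT-ISS, WT) and at 251 and 213 at 24 h, with -0.06 (SE 0.19, edgeR adjusted p = 0.976). ECT2 was lower in ΔOGT-ISS at 48 h and higher at 24 h. Among the genes of chromosome structure, NCAPG, a condensin subunit, was at 233 and 235 CPM at 48 h (ΔOGT-ISS, WT) and at 223 and 165 at 24 h (0.21, SE 0.17, edgeR adjusted p = 0.87), and TOP2A at 1454 and 1309 CPM at 48 h (ΔOGT-ISS, WT) and at 1206 and 1189.9 at 24 h (0.09, SE 0.17, edgeR adjusted p = 0.96).

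The 3 members with the lowest p lay in stretches of chromosome whose other genes were shifted the same way between the lines. For each member the median log2 ratio of the lines was taken over up to 20 tested protein-coding genes of at least 5 CPM on each side, at each time, relative to the median of all such genes. It lay beyond 0.3 in the same direction at both times for 4 of 45 members. CCNB2 (chr15:59105078-59125045, GRCh38) had neighbours at -0.57 at 48 h and -0.52 at 24 h, and KIF23 (chr15:69414246-69448427) at -0.46 at 48 h and -0.54 at 24 h. Their own differences, -0.62 and -0.58, were close to those of their neighbours. TPX2 (chr20:31739271-31801805) had neighbours at 0.65 at 48 h and 0.51 at 24 h, somewhat below its own 0.79. BUB1B (chr15:40161023-40221136), a checkpoint protein and the third member on chromosome 15, had neighbours at -0.49 at 48 h and -0.37 at 24 h but was itself counted at 260.2 and 282 CPM at 48 h (ΔOGT-ISS, WT) and at 277 and 271 at 24 h, a log2 difference of -0.04 (SE 0.16, edgeR adjusted p = 0.979). The 299 expressed genes of chromosome 15 had median log2 ratios of -0.52 at 48 h and -0.49 at 24 h. In the other 41 members the differences stayed between -0.39 and 0.35. Their neighbourhood medians ran from -0.35 to 0.23 at 48 h and from -0.25 to 0.30 at 24 h. Among them CDC25B (0.33) had neighbours at 0.23 and 0.30 (48 h, 24 h). PTTG1 (-0.29) had them at -0.31 and -0.20, and HMMR (-0.16) at -0.35 and -0.20. CCNA2 (-0.02) lay on the other side of neighbours at 0.21 and 0.13. With the neighbourhood median removed as an offset, TPX2 came to 0.21 (edgeR adjusted p = 0.891), CCNB2 to -0.07 (edgeR adjusted p = 0.957), KIF23 to -0.08 (edgeR adjusted p = 0.957) and BUB1B to 0.39 (edgeR adjusted p = 0.668). Across the 45 members the line log2 ratio and the neighbourhood median had a Spearman coefficient of 0.376 at 48 h and 0.641 at 24 h, against 0.164 and 0.313 over 16835 genes. These are descriptions across genes that share libraries and, on 1 chromosome, neighbours. The part of the regional shift in these differences was not tested beyond that offset.

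**Figure D2:**
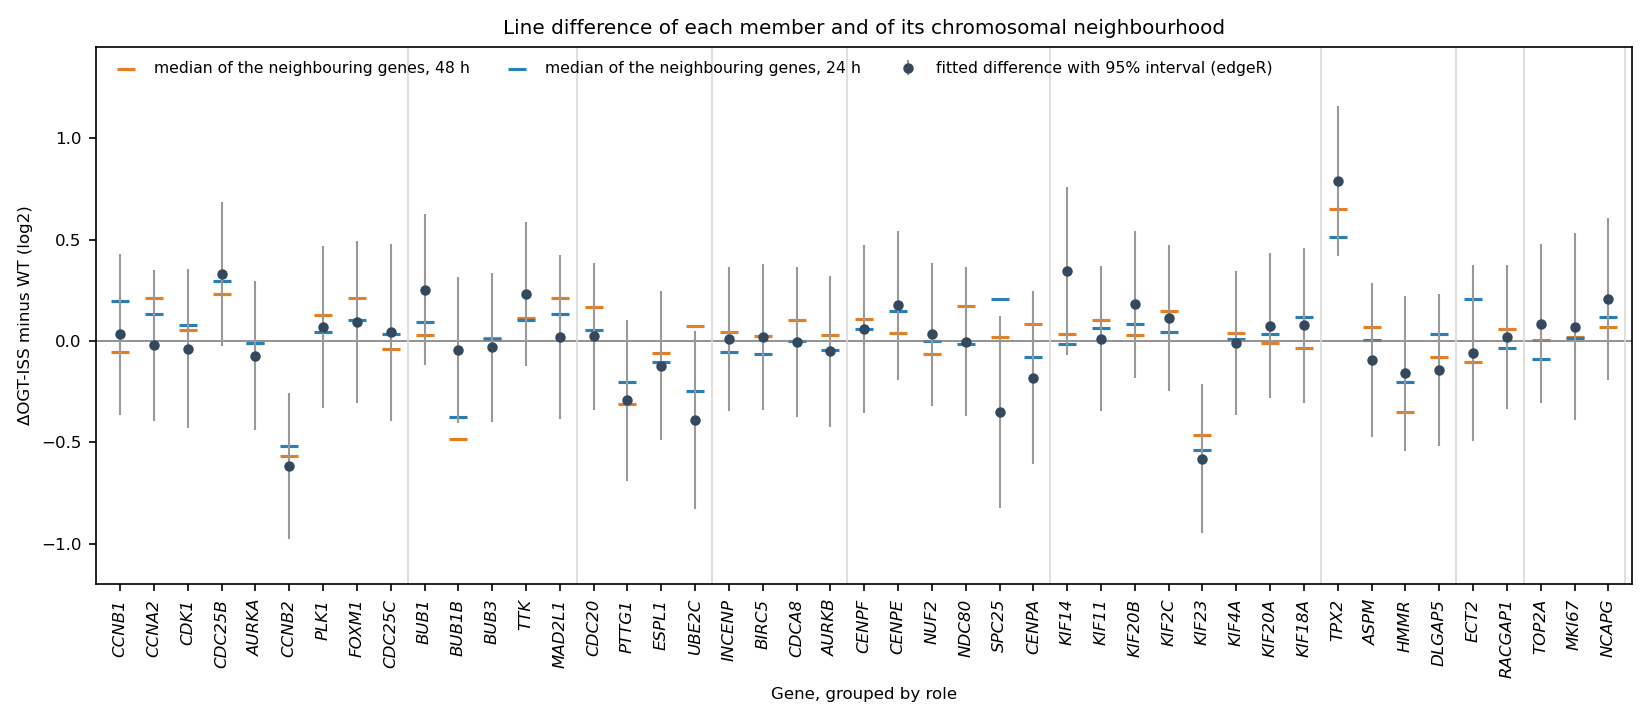
Fitted log2 difference between ΔOGT-ISS and WT for each of the 45 genes, with its 95% interval (points and bars), beside the median log2 ratio of its neighbouring genes at 48 h and at 24 h (dashes). CCNB2, KIF23 and TPX2 sit near shifted neighbourhood medians of -0.57, -0.46 and 0.65 at 48 h, while BUB1B lies near 0 above neighbours at -0.49.

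At each IL-2 time the lines can be set side by side as 1 library against 1, with an interval that covers counting error only. That interval left out 1 for 29 of 45 members at 48 h and for 29 at 24 h. Of 9854 genes of at least 5 CPM it left out 1 for 6131 at 48 h and 6365 at 24 h. For TPX2 the ΔOGT-ISS to WT ratio at 48 h was 1.74 (1.67 to 1.80) and that at 24 h was 1.72 (1.68 to 1.76), for CCNB2 they were 0.630 (0.581 to 0.683) and 0.674 (0.637 to 0.714), and for KIF23 0.617 (0.581 to 0.656) and 0.725 (0.693 to 0.757). Each of these 3 lay on 1 side of 1 at both times. UBE2C gave 0.614 (0.568 to 0.664) at 48 h and 0.941 (0.900 to 0.985) at 24 h, SPC25 0.627 (0.547 to 0.719) and 0.971 (0.889 to 1.06), and PTTG1 0.700 (0.657 to 0.747) and 0.950 (0.904 to 0.999). In these the ratio was nearer to 1 at 24 h than at 48 h. KIF14 and NCAPG showed the reverse, with ratios of 1.07 (1.03 to 1.12) and 0.990 (0.937 to 1.05) at 48 h and 1.50 (1.46 to 1.55) and 1.35 (1.29 to 1.40) at 24 h. Over the members, 16 of 45 log2 ratios were above 0 at 48 h (median -0.04) and 32 of 45 at 24 h (median 0.04). For 19 the sign was shared by the 2 times. Of all 17492 genes tested, 9107 were above 0 at 48 h (median 0.02) and 8831 at 24 h (median 0.005), and 9896 shared the sign. At 48 h the log2 ratio went with transcript length across the members (Spearman coefficient 0.478, n = 45), which was not so over 17331 genes (0.022). At 24 h the members' coefficient was 0.142. UBE2C and PTTG1 are among the shortest transcripts, and their neighbours at 48 h were at 0.08 and -0.31 on the log2 scale. The part of length or of neighbouring genes in their 48 h ratio was not tested. Whether the line difference itself changed with time could not be tested with 1 library per line and time.

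**Figure D3:**
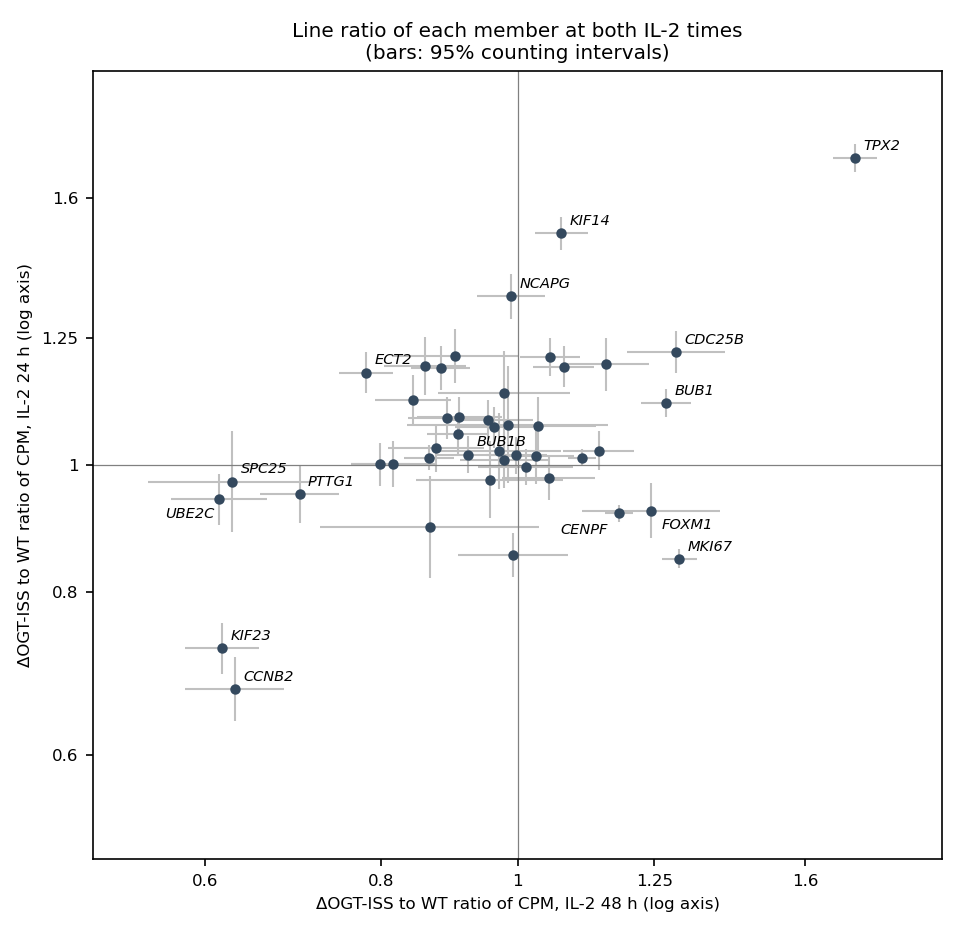
ΔOGT-ISS to WT ratio of CPM at 48 h of IL-2 (horizontal, log axis) against the ratio at 24 h (vertical, log axis), 1 point per gene, with 95% counting intervals. TPX2 stands apart at 1.74 and 1.72, CCNB2 and KIF23 lie low on both axes, and most other genes lie near 1 on both.

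Between the IL-2 times the members split. At 24 h against 48 h, 16 of 45 passed the edgeR test, 11 higher and 5 lower, where 25.9% of all genes tested did (15% higher, 10.9% lower). The share of members called was 35.6%, with a median log2 difference (24 h minus 48 h) of -0.08, against 0.07 over all genes. The times also differed in depth, and nothing in the labels says that they were prepared together, so IL-2 time and preparation cannot be told apart. Higher at 24 h were INCENP, ESPL1, FOXM1, PLK1, CDC20, CDC25B, CDCA8, CENPA, RACGAP1, ASPM and KIF20A. CCNB1, ECT2, HMMR, NUF2 and PTTG1 were lower. For 32 of the 45 (71.1%) both libraries of 1 time lay above both of the other, against 64.9% of all genes. The split depended on the scaling. Upper-quartile factors gave 8 higher and 7 lower (17.8% and 15.6%, against 13.5% and 13.3% of all genes), without ASPM, CENPA and KIF20A. No filter on low counts gave 12 higher and 0 lower (26.7% and 0%, against 8.51% and 2.71% of 43630 genes). The median of all genes moved from 0.07 to -0.01 with these factors and to 0.23 without the filter. All 16 kept the sign of their difference under every alternative run, also where they were not called.

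In the mitotic entry group 3 of 9 were called higher at 24 h than at 48 h and 1 lower. FOXM1, the transcription factor that drives G2/M genes, was at 63.9 CPM in ΔOGT-ISS and 51.4 in WT at 48 h, and 118 and 127 at 24 h, with a time difference of 1.09 (SE 0.18, edgeR adjusted p = 0.00407). CDC25B, with the values given above, was higher at 24 h by 0.87 (SE 0.15, edgeR adjusted p = 0.00619). PLK1, the kinase that promotes entry, was at 64.3 and 71.2 CPM at 48 h (ΔOGT-ISS, WT) and at 141 and 117 at 24 h. Its difference was 0.92 (SE 0.17, edgeR adjusted p = 0.00768). CCNB1, the main mitotic cyclin, moved the other way and was at 288 CPM in ΔOGT-ISS and 327 in WT at 48 h, and 206 and 174 at 24 h, with -0.70 (SE 0.17, edgeR adjusted p = 0.0219). In all 4 genes both libraries of 1 time lay beyond both of the other. PLK1 and CCNB1 are named here because they passed the test. CDK1, the kinase that CCNB1 activates, had -0.27 and CCNA2 0.29, neither past the test. No checkpoint gene passed: MAD2L1, a subunit of the checkpoint inhibitor of CDC20, was at 149 and 174 CPM at 48 h (ΔOGT-ISS, WT) and at 123 and 103 at 24 h, with -0.52 (SE 0.18, edgeR adjusted p = 0.0636), and BUB3 at 274 and 302 CPM at 48 h (ΔOGT-ISS, WT) and at 262 and 248 at 24 h, with -0.17 (SE 0.16, edgeR adjusted p = 0.468). Of the anaphase genes, ESPL1 (separase), the protease that opens cohesin, was at 87.8 CPM in ΔOGT-ISS and 88.5 in WT at 48 h, and 176 and 206 at 24 h, with 1.11 (SE 0.16, edgeR adjusted p = 0.00275). CDC20, the activator of the anaphase-promoting complex, was at 129 and 136 CPM at 48 h (ΔOGT-ISS, WT) and at 261 and 241 at 24 h, with 0.92 (SE 0.16, edgeR adjusted p = 0.00536). Both were higher at 24 h. PTTG1, the inhibitor of separase, was lower at 24 h by 0.57 (SE 0.17, edgeR adjusted p = 0.0462) on the log2 scale.

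The chromosomal passenger genes all had values above 0, and 2 of 4 were called higher at 24 h, where 15% of all genes were. INCENP, the scaffold that holds AURKB, was at 120.3 CPM in ΔOGT-ISS and 119 in WT at 48 h, and 293 and 294 at 24 h, with 1.30 (SE 0.16, edgeR adjusted p = 0.00142), the largest time difference of any member, and the counting interval of its line ratio held 1 at both times. CDCA8 was at 141 and 155 CPM at 48 h (ΔOGT-ISS, WT) and at 249 and 229 at 24 h, with 0.69 (SE 0.16, edgeR adjusted p = 0.0174). AURKB and BIRC5 of the same complex had 0.36 and 0.34 and did not pass. At the kinetochore, NUF2, a partner of NDC80, was lower at 24 h and CENPA, the centromere histone, was higher. NUF2 was at 188 and 183 CPM at 48 h (ΔOGT-ISS, WT) and at 125 and 123 at 24 h (-0.58, SE 0.15, edgeR adjusted p = 0.0281). CENPA was at 21.5 and 24.8 CPM at 48 h (ΔOGT-ISS, WT) and at 34.4 and 38.4 at 24 h (0.66, SE 0.18, edgeR adjusted p = 0.0351). NDC80 itself had -0.08. Of the kinesins only KIF20A (MKLP2), which brings the passenger complex to the spindle midzone, passed the test, at 80.6 and 78.0 CPM at 48 h (ΔOGT-ISS, WT) and at 119 and 111 at 24 h, with 0.54 (SE 0.15, edgeR adjusted p = 0.0384). KIF23, which had the second lowest p, had -0.41 (SE 0.16, edgeR adjusted p = 0.0927). HMMR was lower at 24 h in both lines (-0.61, SE 0.17, edgeR adjusted p = 0.0313), and ASPM, which focuses spindle poles, was higher, at 394 and 455 CPM at 48 h (ΔOGT-ISS, WT) and at 621 and 613 at 24 h, with 0.55 (SE 0.16, edgeR adjusted p = 0.0442). RACGAP1 was higher at 24 h (0.61, SE 0.15, edgeR adjusted p = 0.024). ECT2, which RACGAP1 activates, was lower (-0.64, SE 0.19, edgeR adjusted p = 0.041). The log2 ratio of 24 h to 48 h for ECT2 was -0.94 in WT and -0.34 in ΔOGT-ISS. None of the chromosome structure genes passed: NCAPG had -0.29 (SE 0.17, edgeR adjusted p = 0.262) and TOP2A -0.20 (SE 0.17, edgeR adjusted p = 0.416). MKI67, the proliferation marker, was at 1018 and 782 CPM at 48 h (ΔOGT-ISS, WT) and at 969 and 1143 at 24 h, a time log2 ratio of -0.07 in ΔOGT-ISS and 0.55 in WT.

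The split between the times went with base composition. GC content, taken from the longest GENCODE transcript, was 34.2% to 59.6% over the members, with a median of 43.2% against 47.9% for all genes tested. It had a Spearman coefficient with the time difference of 0.671 (Pearson's r 0.757) across the 45 members and of 0.472 across 16884 genes. In the 15 members richest in GC, 9 were higher at 24 h and 1 was lower. The middle 15 gave 1 and 1, and the 15 poorest in GC gave 1 and 3. All genes were divided at the same limits, 40.0% and 47.6% GC, with no outer limits, so the outer classes reach beyond the members' range. Of them 27.1%, 4.33% and 1.06% were called higher and 5.16%, 15.4% and 21.6% lower, from rich to poor. The GC content of INCENP was 59.6%, of ESPL1 57.0% and of FOXM1 55.6%, whereas HMMR, ECT2 and NUF2 had 36.7%, 38.0% and 38.8%. Against that order, ASPM, with 37.1% GC, was higher at 24 h and PTTG1, with 49.3%, was lower. When offsets for transcript length and GC content were fitted per library, 5 members were called, all higher at 24 h: ASPM (1.11), RACGAP1 (0.83), CENPA (0.74), FOXM1 (0.63) and ESPL1 (0.63). Of all genes, 18.4% were called with these offsets (9.43% higher, 8.93% lower), against 11.1% of the members, and the median of the members was 0.22. With an offset for GC content alone 11 members (24.4%) were called, 8 of them among the 16, and PTTG1 was the only one lower, where 19.6% of all genes were called (10.1% higher, 9.44% lower). With an offset for length alone 7 members (15.6%) were called, 4 higher and 3 lower, against 23.2% of all genes (12.1% higher, 11% lower). The share of members called thus lay above that of all genes without offsets and with the GC offset, and below it with the other 2. The count fell from 16 to 3 without the 24 h library of ΔOGT-ISS, to 5 without that of WT and to 7 and 10 without the 48 h libraries of WT and ΔOGT-ISS, while the share of all genes called was 7.18%, 6.07%, 16.9% and 18.2% in that order. ESPL1, FOXM1 and INCENP were called in each of these 4 fits, which have no line term. What part base composition had in each difference was not tested beyond these offsets.

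**Figure D4:**
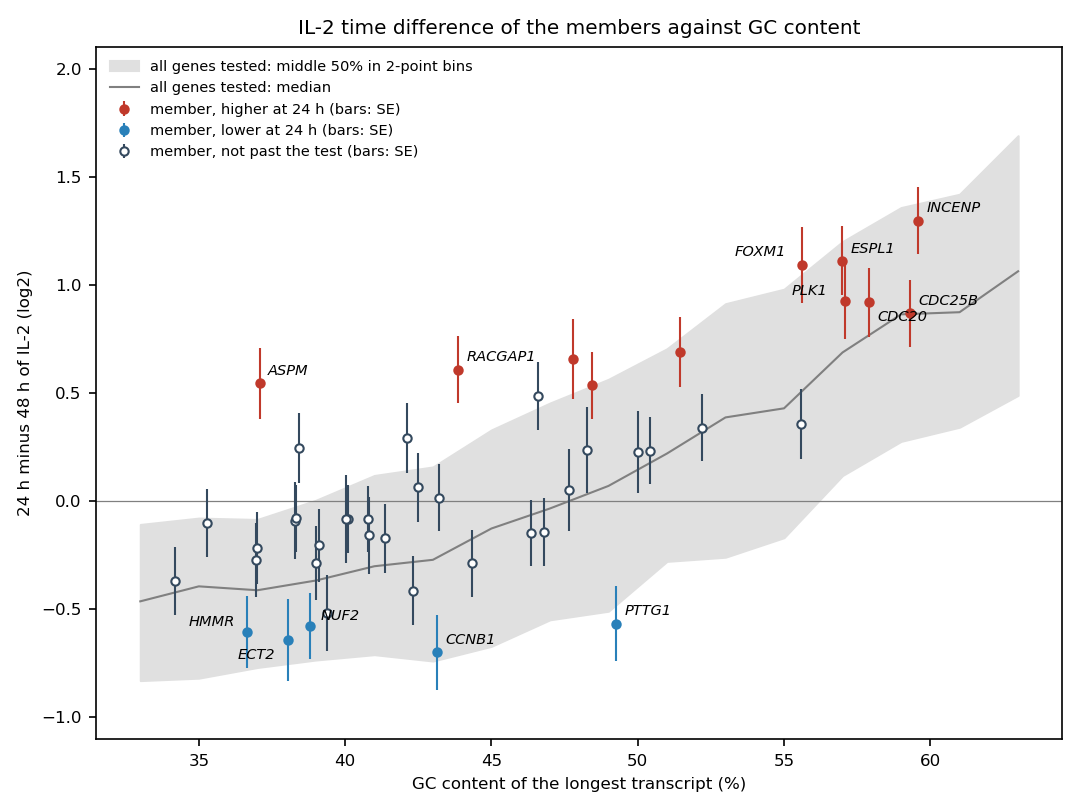
Fitted log2 difference between 24 h and 48 h of IL-2 (vertical, bars are SE) against GC content of the longest transcript (horizontal, percent) for the 45 genes, over the median and middle 50% of all genes tested (grey). Genes called higher cluster at the GC-rich end with INCENP at 1.30, and genes called lower lie mostly at the GC-poor end. ASPM, RACGAP1, CENPA and DLGAP5 are among the genes that lie above the grey band, and PTTG1 lies below it.

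The rest of the G2/M and mitosis programme was read from 6 further lists, 127 genes of which 125 were tested. In the line comparison 1 of 125 (0.8%) passed the test, against 0.463% of all genes. CHFR, a ubiquitin ligase that delays entry into mitosis under stress, had 8 and 7 counts in the ΔOGT-ISS libraries (48 h, 24 h) and 151 and 378 in WT. After scaling, it was at 0.701 CPM in ΔOGT-ISS and 14.3 in WT at 48 h, and 0.241 and 15.4 at 24 h, with a log2 difference of -5.18 (SE 0.49, edgeR adjusted p = 0.0118). Its neighbours were at -0.0038 at 48 h and 0.09 at 24 h, inside the bound of 0.3 used above. Of regulators of transcription, MYBL2 (B-MYB) had the lowest p, at 75.5 CPM in ΔOGT-ISS and 149 in WT at 48 h, and 136 and 219 at 24 h, with -0.84 (SE 0.16, edgeR adjusted p = 0.0911). It did not pass, and both ΔOGT-ISS values lay below the WT value of the same time. DSN1, a kinetochore subunit, had 0.78 (SE 0.16, edgeR adjusted p = 0.114), KIF3B, a kinesin, 0.55 (SE 0.16, edgeR adjusted p = 0.256), and CDC26, a subunit of the anaphase-promoting complex, -0.57 (SE 0.28, edgeR adjusted p = 0.63). NCAPG2, of condensin II, had -0.40 (SE 0.16, edgeR adjusted p = 0.479). The median over the 125 was 0.01. Of these genes, 10 lay in neighbourhoods shifted beyond 0.3 at both times, and each had a fitted difference on the same side as its neighbours. In the 9 with lower neighbours the difference ran from -1.13 (NUSAP1) to -0.01 (OIP5), with a median of -0.53. NUSAP1 had only 4 and 18 counts at 48 h (ΔOGT-ISS, WT) and an SE of 0.55. OIP5 had an SE of 0.25, and its log2 ratio at 48 h was 0.18, above 0, with neighbours at -0.36. The 9 were MASTL on chromosome 10 (-0.81), ANLN on chromosome 7 (-0.56), and ARHGAP11A, KNL1, OIP5, NUSAP1, ARPP19, ZWILCH and PRC1 on chromosome 15. The tenth was KIF3B on chromosome 20, near TPX2. None passed the test, and KNL1, OIP5, NUSAP1 and BUB1B share some of their neighbours. Between the IL-2 times 24 of the 125 were higher at 24 h and 14 lower, 30.4% in all, near the 25.9% of all genes (15% higher, 10.9% lower). PKMYT1, an inhibitory kinase of CDK1, was higher at 24 h by 2.37 on the log2 scale. Among the 14 that were lower were 4 genes of cohesin and its regulators, RAD21, STAG2, SMC3 and PDS5B, RAD21 by 1.23. These 5 were picked after their values were seen.

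Genes of the preceding phase, G1/S and DNA replication, also showed no line call: 0 of 45 passed, with a median of 0.04 and a lowest edgeR adjusted p of 0.26. At an unadjusted p under 0.05 there were 3 of 45, as many as among the mitotic genes. Between the times 16 were higher at 24 h and 4 lower, with a median of 0.23, whereas the mitotic genes gave 11, 5 and -0.08. That is 44.4% of the G1/S genes called, beside 35.6% of the mitotic genes and 25.9% of all genes, whose median was 0.07. The 2 lists were not tested against each other. Of 20 genes of arrest and quiescence 17 were tested and 0 passed in the line comparison. Between the times CDKN2C, CDKN2D and CDKN2A were higher at 24 h and CCNG2, BTG1, SESN2, SESN1 and MDM2 lower, 17.6% and 29.4% of the 17, where 15% and 10.9% of all genes were. The median log2 difference between the times was -0.21 in that list.

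The genes nearest in pattern to the mean of the 45, by Euclidean distance of centred log2 CPM over the 4 libraries, were SSRP1, NHLRC2, GLG1, VCF1 and SUMO2, among 9809 genes of at least 5 CPM. Their distances were 0.013 to 0.033. The members were themselves at a median distance of 0.447 from that mean, and 2818 other genes were nearer than that. The mean is nearly flat, at -0.09 and -0.02 at 48 h (ΔOGT-ISS, WT) and 0.09 and 0.02 at 24 h. It averages members higher and members lower at 24 h, so genes that change little lie near it. The distance thus cannot show whether other genes share the behaviour of the members.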

How the data were processed

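RiboCop removed ribosomal RNA from the total RNA of the 4 NK-92 samples and CORALL V2 made the libraries, per the labels' protocols. The count table was deposited by the authors as raw reads per Ensembl gene. It lists whole numbers and is not normalized. The submitters' processing notes name HISAT2 2.2.0, SAMtools 1.15.1, featureCounts 2.0.1 and hg38, and give none of them a role. Which annotation was used, whether counting used strand and how molecular identifiers were treated is not given in the sources used here. In the FPKM table deposited by the authors each value is a count over a transcript length and the column's total. It supplied symbols and transcript lengths and served to compare levels between genes.

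Counts were tested with edgeR 4.0.16 (quasi-likelihood F test, TMM, two-sided, Benjamini-Hochberg over the 17492 genes that filterByExpr left at a minimum count of 10, threshold 0.05). The model holds line and IL-2 time without an interaction, so the 1 residual degree of freedom takes up both noise and interaction. The standard error is the log2 difference over the square root of F, and the 95% interval uses the moderated degrees of freedom. Ratios of single libraries carry exact conditional binomial 95% intervals, which cover counting error only. Positions and GC content came from GENCODE release 29 (GRCh38), transcript lengths from the authors' FPKM values and promoters from RefSeq. Line and IL-2 time of each library came from the labels. The alternatives changed the scaling, the count filter, the tool (DESeq2 1.42.0, or limma 3.58.1 on log2 FPKM), the terms, the libraries, the depth, and offsets for length, GC content or neighbouring genes. The offsets for GC content alone and for length alone were added after seeing the data.

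The genes and lists were chosen with earlier results of these data known. Values and statistics are given for the 2 genes of each of 9 role groups with the lowest unadjusted p in each comparison, and, of the 6 further lists, for those called between the lines and the one with the lowest p. The 5 genes of like pattern are those at the smallest distance. Other genes named were chosen after their values were seen.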

Additional observations from a re-analysis of the deposited data

Results flagged for a closer look

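For 10 of the 45 mitotic genes (22.2%, against 13.8% of 9854 genes of at least 5 CPM) the ΔOGT-ISS to WT ratio lay on opposite sides of 1 at the 2 IL-2 times, beyond counting error at both. Each line and time has 1 library, so whether these ratios differ between 48 h and 24 h was not tested. Of the 10, 7 were lower in ΔOGT-ISS at 48 h and higher at 24 h. CCNA2 went from 0.891 at 48 h to 1.09 at 24 h, CCNB1 from 0.882 to 1.19, and CDK1, their partner kinase, from 0.843 to 1.12. BUB3 went from 0.907 to 1.06 and MAD2L1, another checkpoint gene, from 0.860 to 1.19. CDCA8 went from 0.909 to 1.09 and ECT2 from 0.781 to 1.18. The reverse was seen in the other 3 genes. FOXM1 went from 1.24 to 0.923, CENPF, a large protein of the outer kinetochore, from 1.18 to 0.919, and MKI67 from 1.30 to 0.848. MKI67, CENPF and FOXM1 differed between the lines by at most 1.30-fold at either time. Depth differed between the times for both lines alike, and its part was not tested.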

How the results depend on the processing

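No member was called between the lines under 16 of 18 settings. DESeq2 and offsets for GC content alone called 1, TPX2. Over all genes the line count of 81 became 154 with DESeq2 size factors, 546 without a filter, 303 with DESeq2, 0 with limma on log2(FPKM + 1) and 0 with 0.1 added, 0 without the time term (1570, 1092 and 242 at an unadjusted p under 0.05), 471 with offsets for length and GC content, 590 for GC content alone, 137 for length alone and 22 with the regional median removed. Leaving out 1 library gave 0 to 16, and the median of the members ranged from -0.072 to 0.10.

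Members called between the times were 6 with limma on log2(FPKM + 1), 0 with 0.1 added (0 of all genes, 8 members and 5601 genes at an unadjusted p under 0.05), 10 without the line term, 5 with offsets for length and GC content, 7 for length alone and 3 to 10 without 1 library (1098 to 3657 of all genes). Their median was -0.16 with upper-quartile factors, 0.14 without a filter, 0.22 with both offsets, 0.20 with the GC offset and -0.0099 to 0.17 without 1 library.

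Among single members the line difference changed sign without a filter (BIRC5 -0.025, RACGAP1 -0.025), with offsets (RACGAP1 -0.0020 for both, -0.017 for GC content) and with the regional median removed (HMMR 0.12). Without 1 library it ranged over 0 for AURKB (-0.30 to 0.16), BIRC5 (-0.25 to 0.22), CDC25B (-0.22 to 0.88), ECT2 (-0.50 to 0.37), HMMR (-0.51 to 0.19), NCAPG (-0.025 to 0.41), PTTG1 (-0.66 to 0.059), RACGAP1 (-0.35 to 0.41) and TOP2A (-0.055 to 0.17). The time difference changed sign without a filter (BUB3 0.044, TOP2A 0.013), with both offsets (BUB3 0.22, NCAPG 0.063, TOP2A 0.17), with the GC offset (BUB3 0.17, NCAPG 0.10, TOP2A 0.18) and for KIF23 without 1 library (-0.74 to 0.041). None of these genes was called in the comparison named. The cause was not tested. Fits that leave out 1 library have no second term and assume that a lone library varies like the others. No paired analysis was possible because the labels number no replicates, other than by IL-2 time, whose term in the model already sets the lines against each other within each time. The fit without that term is its unpaired counterpart.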
